A study of Homo sapiens with 4 samples.

Results

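Focal adhesions are the plaques where integrins, the cell's receptors for matrix, are tied to the actin cytoskeleton. Talins and kindlins bind the integrin tail and switch it on, vinculin and alpha-actinin carry force to actin filaments, and adaptors of the paxillin, Cas and zyxin families dock kinases such as FAK and SRC, which pass the adhesion signal on to small GTPases. In carcinoma cells, the make-up of this plaque is known to bear on how firmly cells hold to matrix and how they crawl. A set of 40 genes encoding these adaptors and kinases, integrins and tensins left out, was described here. They were picked by gene symbol from tables of 61471 gene names, all 40 were found, and 38 passed the filter on low counts that left 16413 genes for testing. EFS had 0 counts in all 4 libraries, and CASS4 had 0 to 6 counts.

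Poly(A) RNA was sequenced from MDA-MB-231, an established human breast cancer line of the triple-negative class. The genotype of all cells is labelled WT, and all carried the same constructs, EGFP, a green protein, fused to histone H2B, and RFP, a red one, named with the CMV promoter. The EGFP positive group (2 libraries) is labelled as lacking increased extravasation, the exit of cells from blood vessels, and the EGFP negative group (2 libraries) as having it. The labels used here state neither the ploidy of the groups, how EGFP was lost, whether a group is 1 clone, nor whether libraries came from separate cultures. Loss of EGFP and extravasation status change together and cannot be told apart, and since the spread between libraries may be technical, that is all a p-value here measures.

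The 4 libraries held 11445076 to 12635576 counts, of which 0.782 to 0.823% fell on the 40 genes. Levels are in CPM (counts scaled to library size, with a further scaling between libraries), and 3 counts, the limit that a count of 0 allows, correspond to 0.241 to 0.260 CPM. Such floors cover counting error only. The labels were checked on H2BC11, which was at 669 and 638 CPM in the EGFP positive libraries and at 7.07 and 5.48 CPM in the EGFP negative ones. Of the markers looked for in this line, VIM, CD44, KRT8, KRT18, FN1 and CAV1 were present in every library, and SPARC had 2 to 5 counts. The hormone receptor genes ESR1 and PGR had 0 to 2 counts. ERBB2, also among the receptor genes looked for, was at 81.5 and 80.6 CPM in EGFP positive and 99.2 and 95.0 CPM in EGFP negative libraries. Leukocyte markers summed to 0.608 to 2.23 CPM, with CD3E and MS4A1 at 0 in all libraries. Endothelial markers summed to 11.8 to 14.4 CPM, most of it KDR, with CDH5 at 0, and fibroblast markers to 14.3 to 24.5 CPM, nearly all of it COL1A1, with DCN at 0. PECAM1 rose from 9 counts in each EGFP positive library to 39 and 43 in the EGFP negative ones.

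The comparison asked which focal adhesion genes differed between EGFP negative and EGFP positive cells. Of the 38 tested, 9 were higher in EGFP negative cells (VCL, PARVA, SRC, ZYX, FBLIM1, VASP, PDLIM7, CSRP1 and KANK2), 10 were lower (TLN2, ACTN1, FERMT1, NEDD9, PTK2, PEAK1, ENAH, EVL, PDLIM5 and GIT2) and 19 were not called. The called members were 50% of those tested, against 18.9% of all genes (9.4% higher and 9.46% lower). A gene was called at an adjusted p below 0.05 in edgeR's quasi-likelihood test over all genes. Most changes were small. Higher genes had log2 fold changes of 0.22 to 0.84 and lower genes of -2.66 to -0.27, all as EGFP negative over EGFP positive, and only NEDD9 and EVL changed at least 2-fold. Abundant genes were called more often: among genes with a mean of at least 100 CPM, 31.6% of all and 57.9% of 19 members were called. A change of at least 2-fold was called in 5.26% of members and 4.25% of all genes. The median log2 fold change of the members was 0.12 and that of all genes -0.0028, with a median size of 0.26 and 0.22.

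**Figure D1:**
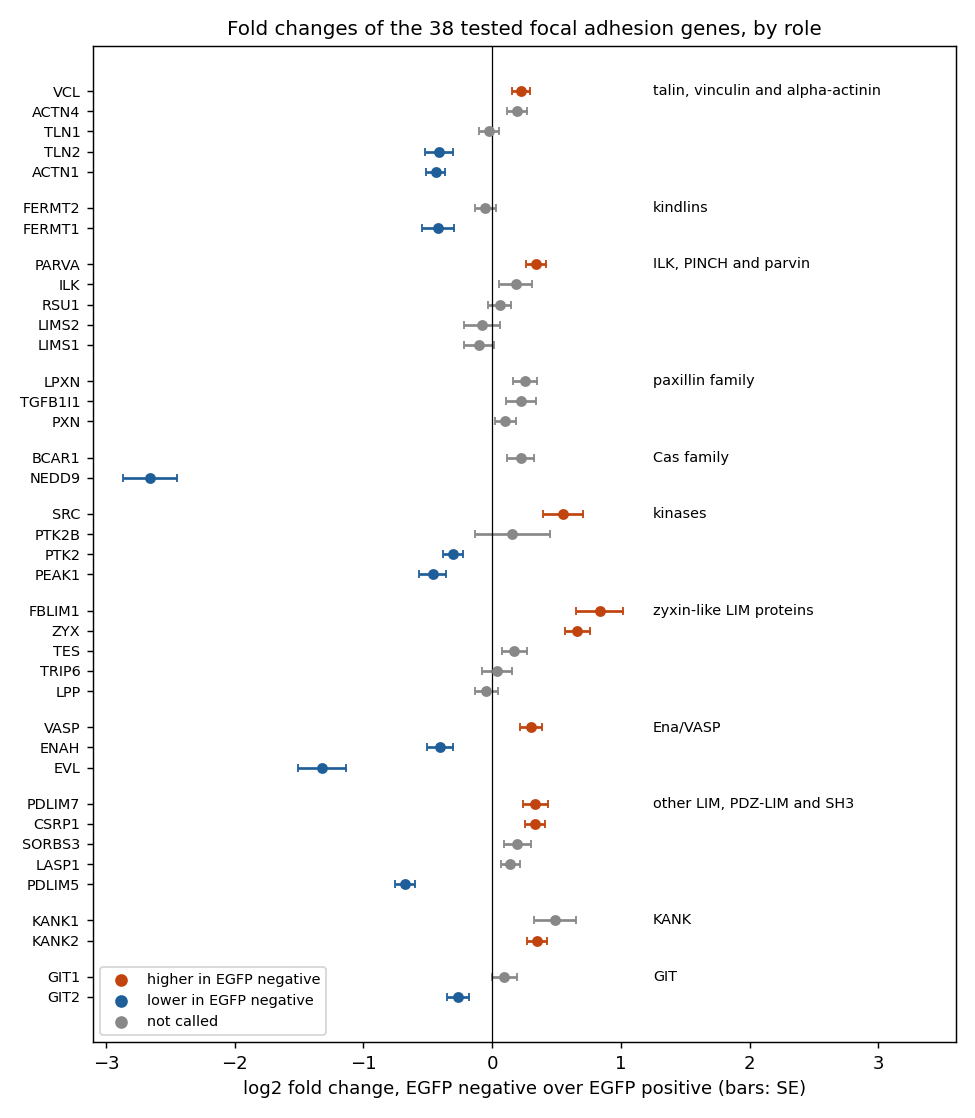
The log2 fold change (EGFP negative over EGFP positive, x axis, bars are SE) of each of the 38 tested genes, grouped by role, with genes higher in EGFP negative cells in orange, lower ones in blue and genes not called in grey. NEDD9 at -2.66 and EVL at -1.32 lie far to the left, and within the actinin, Ena/VASP, kinase and PDZ-LIM groups genes of both colours or of blue and grey stand side by side.

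The library left out decided many of these calls. Log2 fold changes moved little for some genes, as for PARVA (0.32 to 0.36 over 13 other settings), and more for others, as for SRC (0.38 to 0.75). A fit without an EGFP positive library takes its spread between replicates from the EGFP negative pair alone. That pair differed more than the EGFP positive pair (chi-square per degree of freedom 6.67 against 2.12). Whether this decided the calls was not tested. Calls among all genes also fell without either EGFP positive library and rose without either EGFP negative one. Member counts and calls from these fits are therefore not particular to the members. With EGFP positive library 1 left out, 3 members were higher and 5 lower, and with its replicate 2 left out, 1 was higher and 4 were lower. Leaving out EGFP negative library 1 gave 10 higher and 9 lower, and leaving out its replicate 2 gave 17 and 10. ACTN1, NEDD9, ZYX, EVL and PDLIM5 were called in all 13 other settings, and all 19 called genes kept their direction in them.

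Actin-regulated transcription through the serum response factor (SRF) and its MRTF coactivators is known to drive many genes of the adhesion plaque, and SRF binds a sequence called the CArG box. RefSeq promoter windows (GRCh38.p14, 250 bases before to 50 after a start site) were matched for 33 of the 40 genes. FERMT1, PARVA, CASS4, PTK2, PTK2B, SRC and SORBS3 had none in the set of windows used. Every member on chromosomes 8 and 20 is among these, so the set may not cover the whole genome. A CArG box lay in a window of 6 of the 33 genes (18.2%), against 1.6% of 27305 genes, or in 6 of 68 windows (8.82%) against 1.29% of 35116. Genes have 1 to 7 windows each in this set, and counts per gene do not show which start was used. The 6 stretches are shown because they let the motif be read beside each gene's change. They run 5′ to 3′ on the gene's strand with up to 20 bases on each side, and capitals mark the CArG box.
ACTN1: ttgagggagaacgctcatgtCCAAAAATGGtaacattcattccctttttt
FBLIM1: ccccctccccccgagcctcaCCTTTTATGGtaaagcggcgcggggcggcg
LPP: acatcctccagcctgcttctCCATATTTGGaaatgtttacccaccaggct
RSU1: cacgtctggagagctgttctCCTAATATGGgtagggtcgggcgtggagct
TES: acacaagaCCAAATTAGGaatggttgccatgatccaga
TGFB1I1: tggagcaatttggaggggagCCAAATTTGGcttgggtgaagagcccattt

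These stretches lie at chr14:68977708-68977757 (minus strand) for ACTN1, chr1:15758679-15758728 (plus) for FBLIM1, chr3:188212509-188212558 (plus) for LPP, chr10:16817464-16817513 (minus) for RSU1, chr7:116222703-116222740 (plus) for TES and chr16:31473134-31473183 (plus) for TGFB1I1. The boxes end 162, 87, 174, 60, 233 and 42 bases before the start site, in the same order. The CArG pattern reads the same on both strands. Of these 6 genes FBLIM1 was higher (log2 fold change 0.84), ACTN1 lower (-0.44) and the other 4 not called. Those 4 were at 0.22 (TGFB1I1), 0.17 (TES), 0.06 (RSU1) and -0.04 (LPP). So few called genes can show neither a common direction nor its lack. GGAATG, the core that TEAD factors bind, was searched on both strands and lay in windows of 8 of the 33 genes (24.2%, against 16.7% of all genes), or in 9 of 68 windows (13.2%) against 14.0% of all windows. Of the 8 genes, VCL and CSRP1 were higher, ACTN1 was lower and 5 were not called. In TES it overlaps the end of the CArG box. A match describes the letters of the window only.

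Among the proteins that link integrins to actin, the rarer talin TLN2 and the alpha-actinin ACTN1 were lower in EGFP negative cells and vinculin was higher. TLN1, the main talin, was at 1143 and 1101 CPM in the EGFP positive libraries and 1177 and 1031 CPM in the EGFP negative ones, which overlap (adjusted p = 0.88). TLN2 (chromosome 15, 62390550 to 62844631, GRCh38 as all coordinates here) was at 45.4 and 42.9 CPM against 33.6 and 32.7 CPM, a log2 fold change of -0.41 ± 0.11 (SE, with adjusted p = 0.016). Per kilobase of exon, TLN2 stood far below TLN1, with 3.35 and 2.52 FPKM (here CPM per kilobase of exon) against 129 and 127 as group means, and the TLN1 to TLN2 ratio went from 38.1 and 38.9 to 53.1 and 47.7.

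VCL encodes vinculin, which reinforces talin's hold on actin under force. Its levels were 522 and 514 CPM in EGFP positive and 603 and 608 CPM in EGFP negative libraries, a log2 fold change of 0.22 ± 0.07 (SE, with adjusted p = 0.044). The groups did not overlap, but the change was the smallest of those called. On the opposite strand, AP3M1, with 899 to 1118 counts, covers 16.6% of the exon bases of VCL, and counting did not use strand.

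The alpha-actinins, which crosslink actin filaments at the plaque and along stress fibres, moved apart. ACTN1 (chromosome 14, 68874128 to 68979440) was at 1086 and 1049 CPM in EGFP positive and at 818 and 756 CPM in EGFP negative libraries, a log2 fold change of -0.44 ± 0.07 (SE, with adjusted p = 8.0e-04). ACTN4 was at 889 and 856 CPM against 1053 and 941 CPM, without overlap, and was not called (adjusted p = 0.1; 3.4e-05 without EGFP negative library 2 and 0.19 without its replicate 1). Per kilobase, ACTN1 stood above ACTN4 in both EGFP positive libraries, at a ratio of 1.33 in each, and below it in both EGFP negative ones, at 0.844 and 0.872. A processed copy, ACTN4P1, took 1210 to 1493 counts per library, up to 13.2% of the ACTN4 count, so the level of ACTN4 is uncertain. TLN2 and VCL lost their calls without EGFP positive library 1 (adjusted p = 0.22 and 0.41) or library 2 (0.1 and 0.49).

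Kindlins work with talin to activate integrins. FERMT2, the kindlin of mesenchymal cells, was at 139 and 148 CPM against 135 and 142 CPM and was not called (adjusted p = 0.74). FERMT1, the epithelial kindlin, fell from 32.7 and 36.2 CPM to 23.6 and 27.9 CPM, a log2 fold change of -0.42 ± 0.13 (SE, with adjusted p = 0.031). It made up 9.34 and 9.70% of the summed FPKM of FERMT1 and FERMT2 in EGFP positive and 7.11 and 7.93% in EGFP negative libraries. Its call was lost without EGFP positive library 1 (adjusted p = 0.086) or 2 (0.32) or EGFP negative library 1 (0.054).

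Integrin-linked kinase, the PINCH adaptors, parvin and RSU1 form one complex below the integrin tail, and of its 5 genes 1 was called. PARVA, encoding alpha-parvin, which brings the complex to actin, was at 159 and 158 CPM in EGFP positive and 197 and 205 CPM in EGFP negative libraries, a log2 fold change of 0.34 ± 0.08 (SE, with adjusted p = 0.0086). The spread within each group was small beside that step, but the call was lost without EGFP positive library 1 (adjusted p = 0.16) or 2 (0.2). ILK was at 28.1 and 25.7 CPM against 32.9 and 28.2 CPM (adjusted p = 0.36), and its level is uncertain, since the opposite-strand gene TAF10 covers 70.7% of its exon bases and had 220 to 304 counts. RSU1, a PINCH-binding protein, was at 100.4 and 103 CPM against 106 and 106 CPM. The PINCH genes LIMS1 (37.2 and 37.5 against 32.1 and 37.5 CPM) and LIMS2 (23.9 and 22.7 against 24.5 and 19.5 CPM) overlapped between groups. LIMS3 and LIMS4, close copies of LIMS1, had 2 to 10 counts.

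Paxillin and its relatives are scaffolds with LD and LIM motifs that recruit FAK, vinculin and GIT proteins. None of the 3 was called. PXN was at 359.6 and 349 CPM in EGFP positive and 399.8 and 361 CPM in EGFP negative libraries (log2 fold change 0.10 ± 0.08, SE). LPXN, encoding leupaxin, was at 79.8 and 77.8 CPM against 98.1 and 89.9 CPM (adjusted p = 0.071), and TGFB1I1, encoding Hic-5, at 50.2 and 42.8 CPM against 58.1 and 50.5 CPM (adjusted p = 0.2). Every EGFP negative library was above both EGFP positive ones for all 3, and all 3 were called without EGFP negative library 2 (adjusted p = 0.02 for PXN, 9.9e-04 for LPXN and 0.0058 for TGFB1I1). Without EGFP negative library 1 none was, with log2 fold changes of 0.025, 0.19 and 0.12 (adjusted p = 0.83, 0.099 and 0.46). PXN-AS1, an antisense gene with 44 to 74 counts, overlaps 26.8% of the exon bases of PXN.

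The Cas family, docking proteins that FAK and SRC phosphorylate and that recruit CRK and DOCK1 to turn on RAC1, held the largest change. NEDD9 (chromosome 6, 11183298 to 11382348) was at 19.6 and 20.3 CPM in EGFP positive and 3.78 and 2.49 CPM in EGFP negative libraries, from 226, 234, 47 and 29 counts. That was a log2 fold change of -2.66 ± 0.21 (SE, with adjusted p = 8.8e-07), or 6.32-fold lower, and in size it ranked at the 99.4th percentile of all tested genes. BCAR1, which encodes p130Cas, the founding member, was at 94.6 and 95.8 CPM against 123 and 99.1 CPM and was not called (adjusted p = 0.16). It was called without EGFP negative library 2 (log2 fold change 0.38, adjusted p = 2.5e-05) and not without EGFP negative library 1 (0.055, adjusted p = 0.69). NEDD9 thus made up 14.4 and 14.7% of Cas-family transcripts per length in EGFP positive libraries and 2.43 and 1.98% in EGFP negative ones. The BCAR1 to NEDD9 ratio was 5.94 and 5.79 in the former and 39.7 and 48.2 in the latter. EFS and CASS4, the other 2 family genes, were at or near the floor, so that EGFP negative cells had BCAR1 as 97.5 and 97.3% of the family.

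The kinases split. PTK2, encoding focal adhesion kinase (FAK), was lower in EGFP negative cells, at 287 and 293 CPM against 227 and 242 CPM, a log2 fold change of -0.31 ± 0.08 (SE, with adjusted p = 0.015). PEAK1, a pseudokinase scaffold that SRC phosphorylates, fell from 55.3 and 54.9 CPM to 41.5 and 38.6 CPM (log2 fold change -0.46 ± 0.10, SE, with adjusted p = 0.0060). SRC, the kinase that partners FAK, was at 20.8 and 16.1 CPM in EGFP positive and at 29.7 and 24.4 CPM in EGFP negative libraries, a log2 fold change of 0.55 ± 0.15 (SE, with adjusted p = 0.023).

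Groups did not overlap for these 3 genes, though the gap for SRC between 20.8 and 24.4 CPM was smaller than the spread within either group. Per length, PTK2 was the most abundant of the 4 kinase genes in every library, with group means of 31.8 and 25.7 FPKM, against 3.45 and 5.04 for SRC. PTK2B, encoding the FAK relative PYK2, was low, at 3.21 to 4.54 CPM, and its groups overlapped. PTK2 and PEAK1 lost their calls without EGFP positive library 1 (adjusted p = 0.19 and 0.08), and PTK2, PEAK1 and SRC without library 2 (0.27, 0.072 and 0.31).

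Zyxin and related LIM proteins gather on plaques and stress fibres under tension, and zyxin and LPP recruit Ena/VASP proteins there. ZYX (chromosome 7, 143381345 to 143391111) rose from 90.3 and 85.1 CPM to 149 and 128 CPM, a log2 fold change of 0.66 ± 0.10 (SE, with adjusted p = 2.9e-04). FBLIM1, encoding migfilin, which binds filamin and kindlin-2, rose from 8.13 and 7.12 CPM to 14.9 and 12.3 CPM, a log2 fold change of 0.84 ± 0.18 (SE, with adjusted p = 0.0058). It had the largest upward change, from counts of 94, 82, 186 and 143, and lost its call without EGFP positive library 2 (adjusted p = 0.061).

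The other 3 LIM genes were not called. LPP was at 99.2 and 106 CPM against 98.7 and 100.2 CPM, and TRIP6 at 66.4 and 66.2 CPM against 77.1 and 58.9 CPM, so both overlapped between groups. TES, encoding testin, was at 68.0 and 69.8 CPM against 73.7 and 81.7 CPM (adjusted p = 0.25; 0.031 without EGFP negative library 1 and 0.42 without its replicate 2), and TRIP6 was called higher without EGFP negative library 2 (adjusted p = 0.043) but had a log2 fold change of -0.17 without its replicate 1 (adjusted p = 0.18). ZYX made up 35.3 and 33.8% of the transcripts per length of these 5 genes in EGFP positive and 44.1 and 43.1% in EGFP negative libraries.

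Ena/VASP proteins, which lengthen actin filaments at plaques and at the leading edge, moved in opposite directions. VASP rose from 145 and 142 CPM to 186 and 167 CPM (log2 fold change 0.30 ± 0.09, SE, with adjusted p = 0.026). ENAH, encoding Mena, fell from 94.0 and 112 CPM to 75.8 and 79.4 CPM (log2 fold change -0.41 ± 0.10, SE, with adjusted p = 0.012). EVL (chromosome 14, 99971449 to 100144236) fell from 12.98 and 15.02 CPM to 5.94 and 5.23 CPM, from counts of 150, 173, 74 and 61, a log2 fold change of -1.32 ± 0.19 (SE, with adjusted p = 2.3e-04), or 2.5-fold lower. Summed per length, the 3 genes were at 73.4 and 73.5 FPKM in EGFP positive and 89.3 and 81.0 FPKM in EGFP negative libraries, of which VASP made up 88.1 and 86.0%, then 92.9 and 92.0%. VASP lost its call without EGFP positive library 1 (adjusted p = 0.23) or 2 (0.31), and ENAH without library 2 (0.36).

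Adaptors with LIM, PDZ and SH3 domains showed the same kind of split. PDLIM5, encoding a PDZ-LIM protein that binds alpha-actinin (chromosome 4, 94451857 to 94668227), fell from 345 and 337 CPM to 206 and 219 CPM, a log2 fold change of -0.68 ± 0.08 (SE, with adjusted p = 3.7e-05). Its relative PDLIM7, encoding enigma, rose from 161 and 160.3 CPM to 223 and 182 CPM (log2 fold change 0.34 ± 0.10, SE, with adjusted p = 0.027). The PDLIM5 to PDLIM7 ratio per length was 0.521 and 0.511 in EGFP positive and 0.224 and 0.293 in EGFP negative libraries. CSRP1, encoding a LIM protein that binds zyxin and alpha-actinin, rose from 294 and 279.6 CPM to 365 and 357 CPM (log2 fold change 0.33 ± 0.08, SE, with adjusted p = 0.0077).

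LASP1, an actin-binding adaptor and per length the highest of the 40 genes in both group means (230.5 and 254 FPKM), was at 951 and 943 CPM against 1073 and 1018 CPM and was not called (adjusted p = 0.19; 0.0085 without EGFP negative library 2 and 0.21 without its replicate 1). SORBS3, encoding the vinculin partner vinexin, was at 58.0 and 59.5 CPM against 72.6 and 62.0 CPM (adjusted p = 0.22; 0.0043 without EGFP negative library 2 and 0.64 without its replicate 1). PDLIM7 and CSRP1 lost their calls without EGFP positive library 1 (adjusted p = 0.18 and 0.12) or 2 (0.2 and 0.27), and PDLIM7 without EGFP negative library 1 (0.053).

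KANK proteins bind talin at the rim of the plaque and tie it to microtubule capture sites. KANK2 rose from 214 and 208 CPM to 278 and 258 CPM (log2 fold change 0.35 ± 0.08, SE, with adjusted p = 0.0076). KANK1 was at 12.1 and 9.98 CPM against 14.9 and 16.1 CPM, without overlap and just short of the threshold (log2 fold change 0.49 ± 0.16, SE, with adjusted p = 0.053), and it passed without EGFP negative library 1 (0.015) but not without its replicate 2 (0.0503). GIT proteins bring PIX and PAK to paxillin and help plaques turn over. GIT2 fell from 126 and 128 CPM to 107 and 104 CPM (log2 fold change -0.27 ± 0.08, SE, with adjusted p = 0.041), while GIT1 was at 90.3 and 101 CPM against 109 and 95.5 CPM (adjusted p = 0.57). Calls of KANK2 and GIT2 were lost without EGFP positive library 1 (adjusted p = 0.12 and 0.33) or 2 (0.21 and 0.39).

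**Figure D2:**
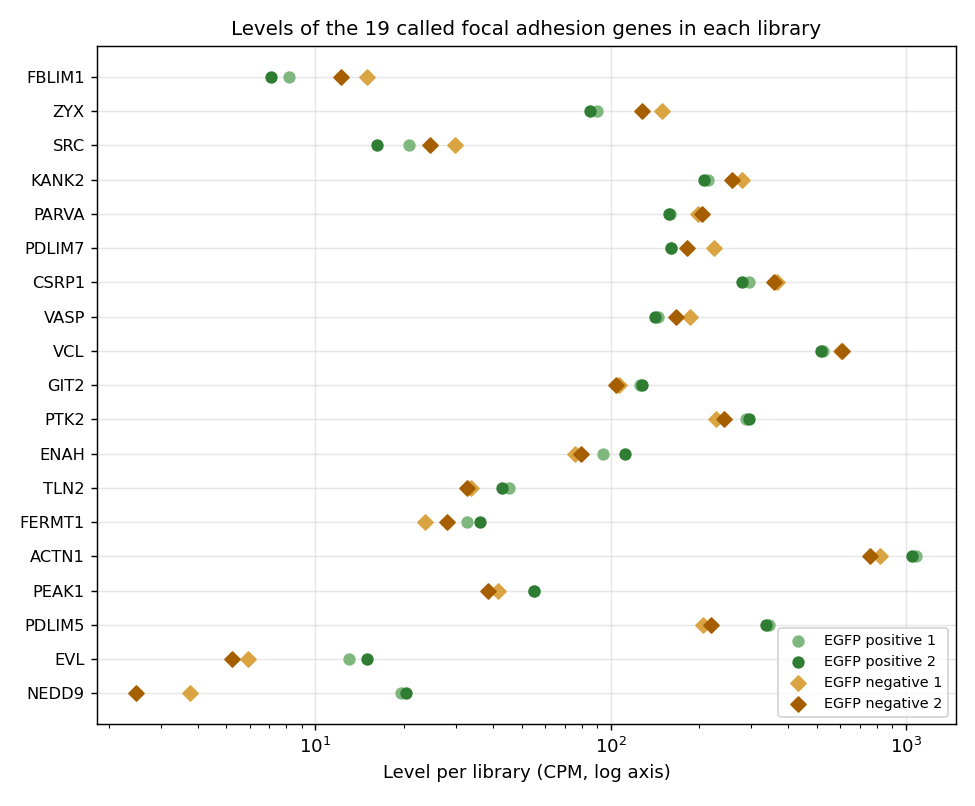
Levels in CPM (log axis) of the 19 called genes in each of the 4 libraries, circles for EGFP positive and diamonds for EGFP negative, ordered by fold change. In every row both diamonds lie on the same side of both circles, with the widest gaps for NEDD9 (19.6 and 20.3 against 3.78 and 2.49 CPM) and EVL.

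Ratios of related genes within a library do not depend on scaling between libraries. Of 14 pairs compared per length, 12 had ratios without overlap between groups, but 2 libraries against 2 cannot give an exact two-sided permutation p below 0.333, which those 12 reached (0.389 after adjustment over the 14 pairs). Groups without overlap were also seen for 57.4% of all genes and 78.9% of the members, in CPM. The widest shifts were in BCAR1 to NEDD9, 7.46-fold up, VASP to EVL, 3.07-fold up from 31.5 and 26.6 to 88.0 and 89.8, and PDLIM5 to PDLIM7, 2.01-fold down. ACTN1 to ACTN4 fell by 0.63 on the log2 scale, against a spread within groups of at most 0.05. Ratios of LIMS1 to LIMS2 and KANK1 to KANK2 overlapped between groups, with changes of -0.02 and 0.15 in log2 against spreads of up to 0.55 and 0.23.

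**Figure D3:**
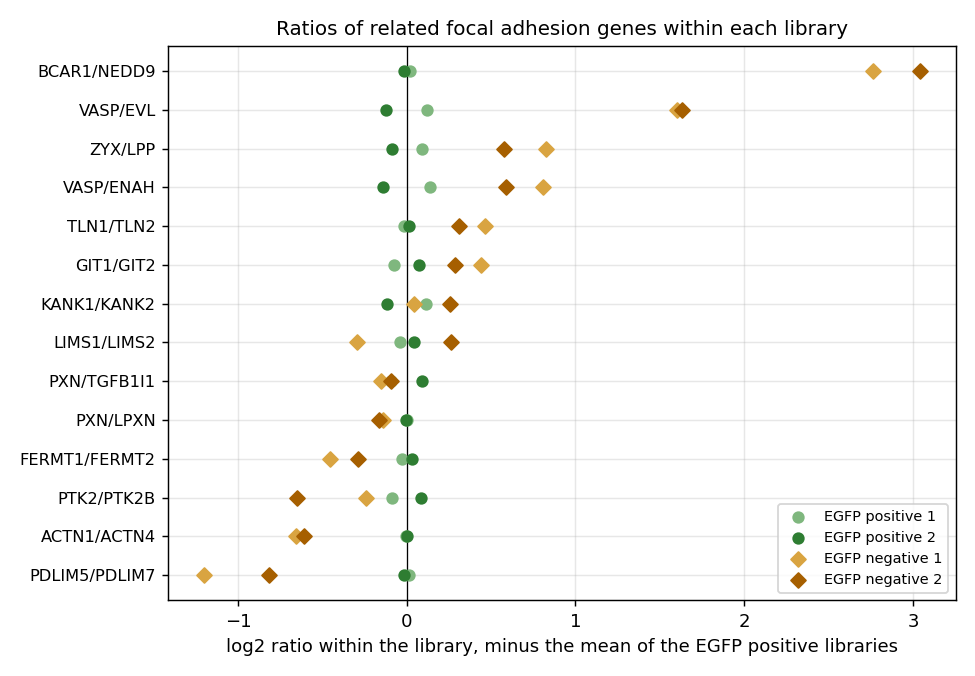
The log2 ratio of 14 pairs of related genes, per length, in each library, set to 0 at the mean of the EGFP positive libraries. EGFP negative libraries (diamonds) lie furthest right for BCAR1 to NEDD9, with a mean change of 2.90, and furthest left for PDLIM5 to PDLIM7, with -1.01.

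Lower members had a longer exon length, which sums the exons under a gene name and is not the length of a transcript. The median exon length was 8538 bases for the 10 lower members (4755 to 20521), 4009 for the 9 higher (2242 to 8627) and 4109 for the 19 not called. Among all genes the medians were 4229 for lower and 3789 for higher ones. Across the 38 members Pearson's r of log2 fold change with log2 exon length was -0.39, and across all 16413 genes it was 0.013. Genes share libraries, so these are descriptions. Median GC content was 47.3% for lower and 59.3% for higher members, against 49.6 and 52.9% for lower and higher genes overall. With levels corrected for exon length, an alternative chosen after seeing the data, all 19 calls held and KANK1 was added. With a further correction for GC content the 19 calls held too, and ACTN4, LPXN, BCAR1 and KANK1 were added. That correction also raised the calls among all genes, to 2092 higher and 2119 lower, against 1543 and 1552 without it. The added members are thus not a result about the members alone. Both corrections follow trends across all tested genes, where r with length was only 0.013. For GC content r was 0.35 across the members and 0.063 across the 14062 tested genes with a GC value. The corrections could not remove a trend of the members alone, so the calls that held do not test the members' link to length or GC content.

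**Figure D4:**
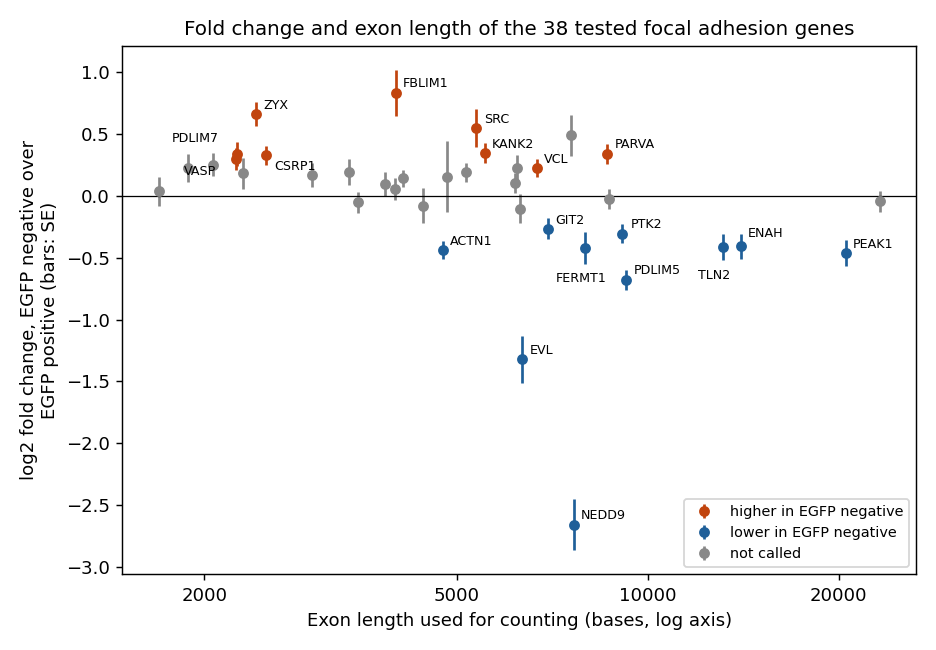
Log2 fold change (y axis, bars are SE) against exon length in bases (log axis) for the 38 tested genes, with called genes named. Lower genes in blue, at 4755 to 20521 bases, lie to the right of most higher genes in orange, at 2242 to 8627 bases.

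Genes around the plaque outside the 40 were followed in 5 lists. Partners of the adhesion kinases had 6 higher and 5 lower of 29 tested (median log2 fold change -0.05). The share called was 37.9%, against 18.9% of all genes and 31.6% of those with a mean of at least 100 CPM. ABL2, the ARG kinase, was at 259 and 287 CPM in EGFP positive and 157 and 149 CPM in EGFP negative libraries (log2 fold change -0.83 ± 0.08, SE, with adjusted p = 1.1e-05). ARHGEF28, an exchange factor for RHOA that binds FAK, fell by 0.67 and ASAP1, an ARF GTPase-activating protein of the plaque, by 0.53 on the log2 scale. RASA1, which restrains RAS, rose from 96.3 and 107 CPM to 155 and 154 CPM, and PAK1, a kinase downstream of RAC1, from 35.8 and 34.8 CPM to 55.5 and 52.3 CPM. Without EGFP positive library 1 only 3 were higher, and without EGFP negative library 1 9 were lower.

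Talin activators and the cortical complex that KANK proteins recruit had 1 higher and 2 lower of 16 (18.8% called, median -0.04), a share like that of all genes. LAYN, encoding the talin-binding hyaluronan receptor layilin, fell from 74.6 and 73.3 CPM to 39.1 and 40.4 CPM (log2 fold change -0.90 ± 0.10, SE). PHLDB2, encoding the scaffold LL5-beta, fell from 71.8 and 73.1 CPM to 47.4 and 54.2 CPM, and RAP1B, a GTPase that brings talin to integrins, rose from 41.6 and 43.7 CPM to 57.0 and 57.2 CPM. RAP1B lost its call without EGFP positive library 1 or 2, leaving 0 higher, and without EGFP negative library 1 the list had 2 higher and 4 lower.

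Further LIM, PDZ-LIM, parvin and vinexin-family genes had 5 higher and 7 lower of 22, again in both directions (median -0.07). The share called was 54.5%, against 18.9% of all genes and 31.6% of those with a mean of at least 100 CPM. The actin-binding genes NEXN (57.1 and 52.9 against 22.6 and 24.8 CPM, log2 fold change -1.22 ± 0.11, SE), LIMA1 (263 and 267 against 141 and 156 CPM) and PALLD (259 and 269 against 162 and 165 CPM) fell. ABLIM3 (58.7 and 56.3 against 97.4 and 99.4 CPM) and PDLIM4 (16.004 and 15.9 against 30.4 and 26.9 CPM) rose. Without EGFP positive library 1, as without library 2, the counts were 3 higher and 4 lower, and DESeq2 called 3 higher.

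Of 32 actomyosin genes tested, 1 was higher and 10 were lower, with 21 not called (34.4% called, against 18.9% of all genes and 31.6% of those with a mean of at least 100 CPM, median -0.13). FLNC, encoding a filamin that crosslinks actin, fell from 683 and 667 CPM to 456 and 384 CPM. TPM1, encoding a tropomyosin of stress fibres, fell from 114 and 118 CPM to 59.0 and 71.2 CPM. MYH10, encoding non-muscle myosin IIB, fell from 171 and 166 CPM to 108 and 107 CPM, and ROCK1, the kinase that activates it, from 155 and 164 CPM to 102 and 109 CPM. The higher gene was ARHGEF2, an exchange factor for RHOA, named after its values were seen. Lower counts were 6 and 5 without EGFP positive library 1 and 2 and 16 without EGFP negative library 1, and higher counts ranged from 0 to 5 over the fits that left out a library.

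SRF, its coactivators and targets had 0 higher and 7 lower of 19 (median -0.18). The share called was 36.8%, against 18.9% of all genes and 31.6% of those with a mean of at least 100 CPM. By edgeR SRF itself was at 184 and 171 CPM in EGFP positive and 133 and 111 CPM in EGFP negative libraries (log2 fold change -0.54 ± 0.10, SE, with adjusted p = 0.0014). TUFT1 fell from 60.1 and 62.8 CPM to 31.2 and 30.8 CPM, FILIP1L from 19.03 and 22.8 CPM to 8.11 and 8.74 CPM, and TRIO, an exchange factor for RAC1 and RHOG, from 338 and 341 CPM to 262 and 234 CPM. The list lies outside the 40 genes, so it leaves out members that SRF may drive. Which members SRF drives in these cells was not tested, so the 7 lower genes here need not stand for all SRF targets. This list shares 8 of its 22 genes with the lists above. Its lower genes TPM1, CNN2 and FHL2 were already counted as lower there, and CNN2 and FHL2 are named only for this overlap. Without EGFP negative library 1 it had 2 higher and 11 lower. No set test was run on these lists.

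**Figure D5:**
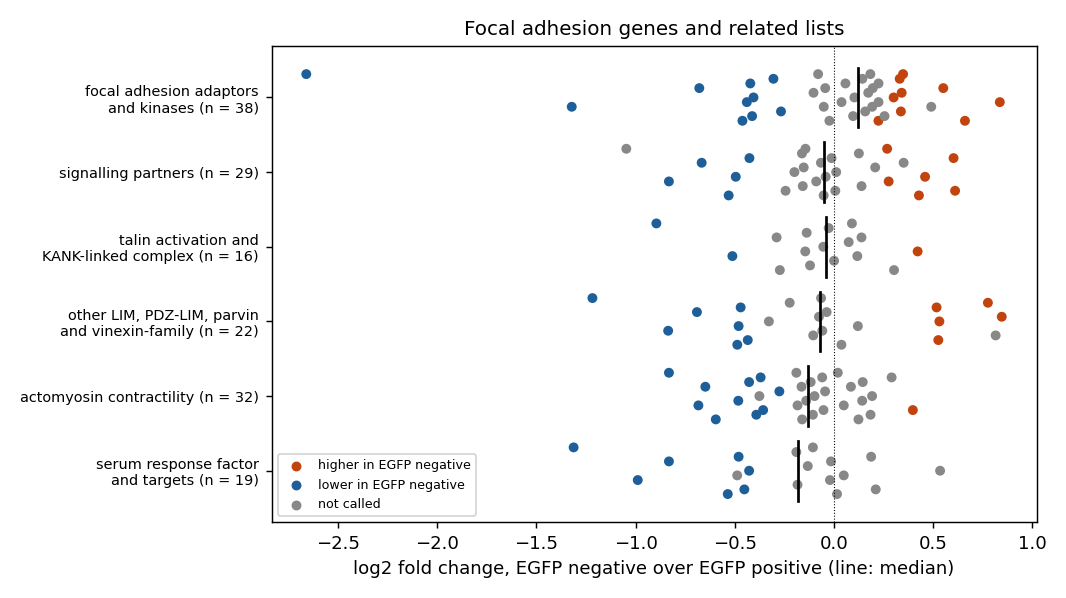
Log2 fold changes (x axis) of the 38 focal adhesion genes and of the tested genes of 5 related lists, 1 point a gene, with a vertical line at each list's median. Called genes lie on both sides of 0 in the top 4 rows, while in the actomyosin row 10 of 11 and in the serum response factor row all 7 called genes lie below 0.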

How the data were processed

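Gene counts were deposited by the authors as 1 table per library. Per the file headers they are raw counts made with featureCounts 2.0.1 for paired reads, summing exons under each gene name of GENCODE 46 basic, with no strand option, although the labels' protocols name a directional kit. The submitters' processing notes name Subread and the builds GRCh37 and hg19, and the aligner is not given in the sources used here. The tables' coordinates are those of GRCh38: the start or end of all 40 genes lay within 5000 bp of its place in another GENCODE release on that build. This shows the annotation used for counting, not the build of the alignment.

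The tables' exon length column, per the file headers the summed length of a gene name's exons (unit: other), gave FPKM, computed here from CPM. Groups and replicate numbers came from the labels. Genes were kept by filterByExpr (minimum count 10, minimum total 15) and tested with edgeR 4.0.16 in R 4.3.3 on all 4 libraries (TMM factors 0.987 to 1.009, quasi-likelihood, group only, Benjamini-Hochberg over 16413 genes). The SE of a log2 fold change is its size over the square root of F. Replicate libraries differed beyond sampling noise (chi-square per degree of freedom 2.12 and 6.67), so none was taken as the same library deposited again. Ratios used 0.5 added counts. The script was tested on simulated counts.

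The members and lists were chosen with earlier results of these data known. Every member is named, and of each list up to 5 called genes with the smallest adjusted p, of which 1 is not reported here. Alternatives were scaling by RLE or upper quartile, testing without the filter or with a stricter one (1 CPM in 2 libraries, summed count 100), DESeq2 1.42.0, limma-voom (limma 3.58.1), a replicate block, each library left out, and, chosen after seeing the data, corrections for exon length and for GC content of GENCODE transcripts with length. Promoter windows are RefSeq's (GRCh38.p14). Figures were drawn with matplotlib 3.10.9.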

Additional observations from a re-analysis of the deposited data

How the results depend on the processing

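The 9 higher and 10 lower members ranged from 7 to 13 and from 7 to 10 under the settings that kept all 4 libraries. Leaving out a library gave 1 to 17 higher and 4 to 10 lower members, and 720 to 2477 higher and 715 to 2465 lower among all genes, against 1543 and 1552. Lower genes overall numbered 997 by DESeq2 and 2407 with the replicate block. In the block fit 13 members were higher and 10 lower, and 2297 genes were higher. Same-numbered libraries deviated together only weakly (r = 0.16 across genes) and share no more than a number, so they were not treated as pairs. The median of the members was 0.05 to 0.19 in every setting. DESeq2 did not call TLN2, VCL, FERMT1 and GIT2, and with no filter VCL, FERMT1, PDLIM7 and GIT2 were not called, while upper quartile scaling lost GIT2 and gained KANK1. The stricter filter gained KANK1, and the block gained ACTN4, LPXN, BCAR1 and KANK1. No called member changed direction. Among members not called, direction turned in fits that left out 1 library for TLN1 (-0.13 to 0.078), LIMS1 (-0.21 to 0.0044), LIMS2 (-0.26 to 0.081), PTK2B (-0.10 to 0.39), LPP (-0.090 to 0.0027), TRIP6 (-0.17 to 0.23) and GIT1 (-0.0060 to 0.20), in log2 fold change, and for TRIP6 with the GC and length correction (-0.011). The cause was not tested.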

Other observations

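Genes near the called members on the chromosome are given as a description, for 6 of the 19, chosen after their values were seen. Medians around the others ran from -0.18 (PTK2) to 0.13 (FBLIM1). Among all tested genes 9.4% were higher and 9.46% lower. Around NEDD9, the 16 other tested genes with a midpoint within 1 Mb had a median log2 fold change of -0.20, with 0 higher and 4 lower. Around EVL the 9 neighbours had a median of -0.14, with 0 higher and 3 lower. GIT2 had 29 neighbours with a median of -0.16, 1 higher and 8 lower. KANK2, which rose, had 63 neighbours with a median of -0.19, 2 higher and 14 lower. ZYX, which also rose, had 12 with a median of -0.22, 1 higher and 1 lower. VCL had 31 with a median of 0.18, close to its own 0.22, with 3 higher and 0 lower.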
